A study of Mus musculus with 148 samples.

Results

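CD8 Gzma T cells are the wells that the deposited annotation places among T cells under a CD8 label named for Gzma, the gene of granzyme A. They numbered 375 of 24020 annotated wells, 5.48% of the 6846 wells annotated as T cells and 13.8% of the 2711 with a CD8 label. The other labels set beside them were CD8 Gzmk (1612 wells), CD8 Dapl1 (377), CD8 Lag3 (347), NK Ncr1 (2312) and NK Xcl1 (198). The mice were female PA-GFP animals on a C57BL/6 background, which express a photoactivatable green fluorescent protein in their own cells, and, except for the Normal controls, each received EO771 cells, a mouse mammary carcinoma line, labelled with tdTomato, in a mammary gland at 8 weeks of age. Pre-MET lungs came from mice that still bore the tumor, and for the later stages the tumor was removed after 3 weeks and lungs were followed by computed tomography. Wells came from control lungs (Normal, 3 mice), lungs before metastases were seen (Pre-MET, 3 mice), the mammary tumors (Primary, 4 mice, of which 8, 9 and 10 are also the 3 Pre-MET mice), lungs of mice that stayed without metastases (Relapse-free, 6 mice) and, in metastasis-bearing mice, Distal normal tissue (14), whole metastases (MET, 13), photoactivated cores (MET Core, 13) and photoactivated edges (MET Invasive margin, 7). All sorted cells were negative for the endothelial marker CD31 and were taken for the leukocyte marker CD45 or for the photoactivated protein. The tumor model is a single implanted cell line.

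CD8 T cells carry the T cell receptor with its CD3 chains and the coreceptor made of Cd8a and Cd8b1, and kill target cells by releasing granules that hold perforin and granzymes. Natural killer (NK) cells kill with the same granules but without a T cell receptor, and are recognized by receptors such as Ncr1 and by the signalling adaptors Tyrobp and Fcer1g. Antigen-experienced effector CD8 T cells often gain Klrg1, an inhibitory lectin receptor, and lose Il7r, the receptor chain for interleukin 7, while naive and memory cells keep Il7r, Tcf7 and Lef1. Granzyme A and granzyme K are proteases of the same family, and their genes lie on the same chromosome.

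Gzma lay on chromosome 13 from 113093825 to 113100981 (mm10, GENCODE vM21, reverse strand), Gzmk on the same strand from 113171608 to 113225908, and Gzmb on chromosome 14 from 56258838 to 56262260. The windows from 250 bases before to 50 bases after their RefSeq starts (GRCm38.p6) are shown because these 3 granzyme genes, which name 2 of the labels or mark them, are followed through the comparisons below. The windows are chr13:113100932-113101231 for Gzma, chr13:113180916-113181215 for Gzmk, which lies inside the longer GENCODE gene, and chr14:56262285-56262584 for Gzmb, which lies wholly upstream of the GENCODE gene, all on the reverse strand. Capitals mark 3 motifs searched on both strands: the RUNX core TGTGGT, the T-box core GGTGTGA and the ZEB E-box CAGGTG.
Gzma: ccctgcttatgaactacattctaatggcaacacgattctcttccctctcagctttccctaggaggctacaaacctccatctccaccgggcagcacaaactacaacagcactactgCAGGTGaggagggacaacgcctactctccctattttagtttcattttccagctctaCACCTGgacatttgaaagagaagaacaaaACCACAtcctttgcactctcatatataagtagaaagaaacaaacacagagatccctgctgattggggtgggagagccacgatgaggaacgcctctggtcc
Gzmk: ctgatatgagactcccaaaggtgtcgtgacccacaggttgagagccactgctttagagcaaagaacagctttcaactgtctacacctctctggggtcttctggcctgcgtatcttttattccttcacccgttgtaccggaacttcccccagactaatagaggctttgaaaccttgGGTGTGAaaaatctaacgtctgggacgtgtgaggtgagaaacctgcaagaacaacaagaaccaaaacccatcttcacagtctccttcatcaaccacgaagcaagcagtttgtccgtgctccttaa
Gzmb: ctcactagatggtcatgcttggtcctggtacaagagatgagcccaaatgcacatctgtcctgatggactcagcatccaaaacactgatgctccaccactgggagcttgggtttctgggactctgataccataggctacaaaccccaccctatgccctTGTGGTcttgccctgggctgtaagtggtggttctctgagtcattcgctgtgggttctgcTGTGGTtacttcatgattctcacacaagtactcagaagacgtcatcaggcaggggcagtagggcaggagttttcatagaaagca
The Gzma window held 1 RUNX core and 2 ZEB E-boxes, the Gzmk window 1 T-box core and the Gzmb window 2 RUNX cores. Of 32851 promoter windows of the same length, 16.8% held the RUNX core, 3.98% the T-box core and 20.2% the ZEB E-box, so the matches are a description of these letters and not of binding.

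The wells were shallow and unevenly spread. A CD8 Gzma well held a median of 992 UMIs (unique molecular identifiers, each counting 1 captured mRNA molecule), from 500 to 19595, and no well identifier was shared between plates. Of 63 samples, each 1 tissue of 1 mouse, 47 held at least 1 CD8 Gzma well and 16, from 11 mice, held 5 or more, with 309 wells and 4023 to 184476 UMIs each. Relapse-free mouse 7 alone held 120 wells, 32% of the total. Levels below are UMIs per 1000000 UMIs of a sample's summed wells (CPM), from reads of transcript 3' ends, so no length correction was made.

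The marker genes of the label were present. A UMI of Ccl5, a chemokine of effector lymphocytes, was found in 374 of 375 wells, of Gzma in 365, of Klrg1 in 136 and of Gzmb, the gene of granzyme B, in 183. Gzma and Gzmb were found together in 181 wells. After each well was thinned to 500 UMIs, 92.8% of CD8 Gzma wells and 91.4% of NK Ncr1 wells kept a Gzma UMI, against 47.5% of NK Xcl1, 7.63% of CD8 Gzmk, 5.84% of CD8 Dapl1, 5.19% of CD8 Lag3 and 3.60% of B cell wells, which should lack the gene. Unthinned, the shares were 97.3% in CD8 Gzma, 12.6% in CD8 Gzmk and 6.35% in B cells, at median depths of 992, 1010.5 and 1001 UMIs.

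Gzmk was found more often in CD8 Gzma wells than in wells labelled CD8 Gzmk. It was found in 77 CD8 Gzma wells, 76 of which also held Gzma and 46 of which also held Gzmb. Thinned to 500 UMIs, 13.3% of CD8 Gzma wells held a Gzmk UMI, against 4.28% of wells with the CD8 Gzmk label, 6.92% of CD8 Lag3 wells and no B cell well. Unthinned, the shares were 20.5%, 6.89% and 13.8%, and 0.0948% in B cells. In the 16 samples Gzmk averaged 453 ± 492.6 CPM in CD8 Gzma and 115 ± 117 CPM in CD8 Gzmk wells (SD, n = 16 samples each), higher in 11 and lower in 4. The groups overlapped, since CD8 Gzma sums ranged from 0 to 1864 CPM and CD8 Gzmk sums from 0 to 449 CPM.

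T and NK cell markers were both present, and the NK list exceeded the T list in 5 of the 16 samples, from mice 8, 11 and 17. At least 1 UMI of 8 CD8 T cell markers (Cd3d, Cd3e, Cd3g, Trac, Trbc1, Trbc2, Cd8a, Cd8b1) was found in 89.1% of CD8 Gzma wells, and of 7 NK cell markers (Ncr1, Klrb1c, Tyrobp, Fcer1g, Klra4, Klra7, Klra8) in 47.5%. By these lists 190 wells held T cell markers only, 144 both, 34 NK cell markers only and 7 neither. T cell markers reached 88.7% of CD8 Gzmk, 38.8% of NK Ncr1 and 8.44% of B cell wells, and NK cell markers reached 41.6%, 96.1% and 27.0%, so the background of the NK list is not small. Both lists were present in 35.9% of NK Ncr1 wells, so a T cell marker UMI does not by itself tell a well from NK wells. Cd8a or Cd8b1 was found in 229 wells. Cd4 and Foxp3, which mark helper and regulatory T cells, had no UMI in the 16 samples, which allows up to 3 UMIs.

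**Figure D1:**
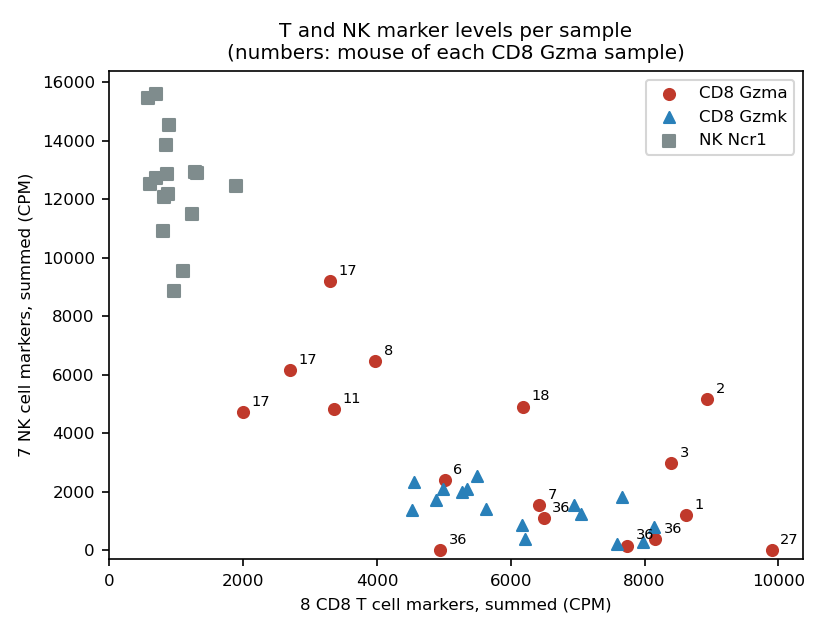
Summed CPM of the 8 CD8 T cell markers (x axis) and of the 7 NK cell markers (y axis) in each of the 16 samples, for CD8 Gzma, CD8 Gzmk and NK Ncr1 wells; numbers give the mouse of each CD8 Gzma point. The CD8 Gzma points run from the CD8 Gzmk points (mouse 36, NK list 0 to 1099 CPM) toward the NK Ncr1 points (mouse 17, NK list 4729 to 9203 CPM).

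Summed over the T list, CD8 Gzma samples ranged from 2002 to 9899 CPM, and over the NK list from 0 to 9203 CPM, the widest spread of the 3 labels drawn in the plot of marker sums. In the 3 tissues of mouse 17 the T list reached 3302 CPM in distal normal tissue, 2002 in the core and 2702 in the margin, and Cd8b1 was at 0, 22 and 117 CPM. In the same order Cd3g was at 1475, 550 and 294 CPM, Cd8a at 421, 374 and 59 CPM and Cd3d at 0, 330 and 176 CPM. Tyrobp stood there at 4847, 1562 and 2291 CPM, Ncr1 at 773, 440 and 352 CPM, and Mki67, a gene of dividing cells, at 1756, 2441 and 822 CPM. The CD8 Gzmk wells of the same 3 tissues held 5493, 7043 and 5347 CPM of the T list, and the NK Ncr1 wells 1315, 1231 and 1096 CPM. T cell markers alone were held by 0 of 6 CD8 Gzma wells in distal normal tissue, 0 of 10 in the core and 3 of 12 in the margin. In the 4 tissues of mouse 36, by contrast, the T list lay between 4942 and 8163 CPM, the NK list between 0 and 1099 CPM, and Cd8b1 between 2397 and 2563 CPM. The NK list also exceeded the T list in Pre-MET mouse 8, at 6463 against 3977 CPM over 5 wells, of which 3 held T cell markers alone and 2 held NK cell markers alone, and in Relapse-free mouse 11, at 4836 against 3357 CPM over 32 wells. In mouse 8 Cd8b1 stood at 2734 CPM, the highest of the 16 samples, and Cd3d at 746 CPM. Other members of the T list were low there, with Cd3g at 249 CPM and Cd8a, Trbc1 and Trbc2 at 0 CPM. Of the NK list sum of mouse 8, the adaptors Tyrobp and Fcer1g gave 1491 and 4474 CPM and Ncr1 gave 497 CPM. In mouse 11 Cd8b1 stood at 329, Cd8a at 305, Cd3d at 587 and Cd3g at 1056 CPM. Tyrobp stood at 2254, Fcer1g at 2042 and Ncr1 at 399 CPM in mouse 11, and a list of myeloid markers summed to 5681 CPM. The cell source of the Tyrobp and Fcer1g transcripts was not tested. In Normal mouse 2 and Relapse-free mouse 18 the NK list reached 5174 and 4915 CPM, below their T list sums of 8936 and 6186 CPM. By these list sums, wells labelled CD8 Gzma in mice 11 and 17 went partly against the label, while in mouse 8 the wells were split between both marker lists. With CD8 Gzma wells restricted to those with a T cell marker UMI, a choice made after seeing the data that left 15 samples, 369 genes were apart from CD8 Gzmk and 560 from NK Ncr1, against 406 and 575 with all wells. Leaving out 1 mouse gave 347 and 508 (mouse 8), 312 and 445 (mouse 11) and 443 and 689 (mouse 17). Results without mouse 17 are given below for some genes and lists only, and the lack of a note does not show that a gene stayed apart. Ncr1 had no UMI in 8 of the 16 samples, among them all 4 tissues of mouse 36.

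Across genes the CD8 Gzma wells were about equally like the CD8 Gzmk and the NK Ncr1 wells. Across 3696 genes, with each label thinned to 66334 UMIs, the log profile of CD8 Gzma wells correlated with that of NK Ncr1 at r = 0.721, CD8 Gzmk at 0.701, CD8 Lag3 at 0.690, NK Xcl1 at 0.663, CD8 Dapl1 at 0.634 and B cells at 0.491. These are descriptions over genes, which share depth and highly expressed transcripts. Without mouse 17 the first 2 values were 0.703 and 0.706, so that their order turned. Within mouse 17 alone the profile was nearer to NK Ncr1 (0.614 against 0.555), within mouse 36 nearer to CD8 Gzmk (0.558 against 0.544), and within mouse 7 neither was nearer by more than 0.01 (0.645 against 0.647).

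Against CD8 Gzmk, Gzma, Gzmb, Ccl5, Ccl4, Klrg1 and Cd244 were higher in CD8 Gzma wells, and Il7r, Lef1, Tcf7, Rgs10 and Gpr183 were lower. Labels were set by the authors' clustering of these same cells, so the following are descriptions with no test. A gene was counted as apart when its mean CPM + 10 differed at least 2-fold and lay on the same side in at least 75% of the samples with 5 or more wells of both labels. Of 11616 genes with at least 10 UMIs, 406 (3.5%) were apart, 31 higher and 375 lower in CD8 Gzma. The CD8 Gzmk sum held more UMIs than the CD8 Gzma sum in 16 of 16 samples, and the part of depth in this split was not tested. With both sums of a sample thinned to equal UMIs, 22 were higher and 103 lower.

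Gzma led the higher genes. CD8 Gzma sums ranged from 6764 to 15193 CPM (median 11433) and CD8 Gzmk sums from 0 to 533 CPM (median 195), without overlap, and the log2 difference of mean CPM + 10 was 5.68. Ccl5 was higher in 16 of 16 samples, at 42056 ± 12451 against 19380 ± 6031 CPM (SD, n = 16), a log2 difference of 1.12. Nkg7, a granule protein gene, was also higher in 16 of 16, at 9198 ± 1896 against 5260 ± 1348 CPM, but under 2-fold. Gzmb averaged 1360 ± 873 against 376 ± 372 CPM and was higher in 14 of 16 samples, with overlapping ranges. Klrg1 averaged 686 ± 465.96 against 113 ± 159 CPM, a log2 difference of 2.50, and was higher in 15 samples and lower in none. Pre-MET mouse 8 was the sample without a Klrg1 UMI in either label.

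Other higher genes named by the same rule were Cd244 (log2 difference 2.73), a receptor of the SLAM family on cytotoxic cells, Ccl4 (2.35), a chemokine, Lgals3 (1.75), the gene of galectin 3, Cap1 (1.61), an actin regulator, and the pseudogene Spcs2-ps (1.92), of which Cap1 was not apart with equal UMIs. Cx3cr1, a chemokine receptor of effector cells, averaged 235 ± 275 against 17.0 ± 30.8 CPM, but was higher in only 9 samples and had no UMI in 6 of the 16 CD8 Gzma sums. Prf1, the gene of perforin, averaged 312 ± 232 against 132 ± 116 CPM and was not apart.

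**Figure D2:**
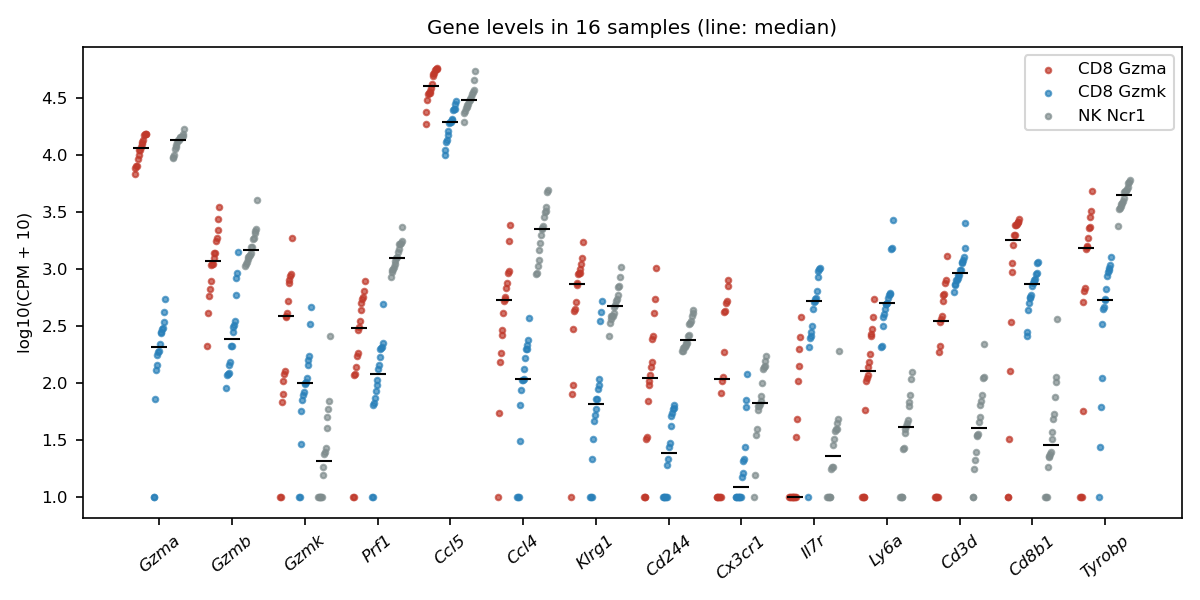
Level of 14 genes as log10(CPM + 10) in each of the 16 samples for CD8 Gzma, CD8 Gzmk and NK Ncr1 wells, with the median as a line. The Gzma points of CD8 Gzma and CD8 Gzmk do not overlap, the Prf1 points of CD8 Gzma lie below those of NK Ncr1, and Il7r is at 0 CPM in 9 CD8 Gzma sums.

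Il7r ranged from 0 to 366 CPM in CD8 Gzma (median 0) and from 0 to 1007 CPM in CD8 Gzmk (median 508), and was lower in 15 samples and higher in none. Of 12 naive T cell genes 6 were lower and none higher (among them Ccr7, Dapl1, Il7r, Lef1 and Tcf7), with a list median of -1.40 on the log2 scale against -0.15 over all genes tested. With equal UMIs 4 of the 12 were lower, namely Il7r, Lef1, Tcf7 and Satb1. The strongest lower genes were Rgs10 (-3.80), a regulator of G protein signalling, Gpr183 (-3.79), an oxysterol receptor that guides lymphocyte position, Dapl1 (-3.11), Zbtb20 (-2.89), Kbtbd11 (-2.83), Rflnb (-2.70) and Ccdc86 (-2.69). Of these, Rgs10 and Gpr183 were also apart with equal UMIs, and Ccdc86 was not apart without mouse 17.

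Among the other gene groups, members did not move as one. Of 14 cytotoxic granule genes 3 were higher (Gzma, Gzmb and Fasl, the ligand of the death receptor Fas) and Gzmm was lower, with a list median of 0.77. With equal UMIs 3 granule genes were higher and 0 lower, and without mouse 17 the counts were 2 higher and 1 lower. Of 14 transcription factors of effector and memory cells, Id2 was higher and Lef1 and Tcf7 lower, while Zeb2 averaged 239 ± 228 against 97.5 ± 131 CPM and was not apart. Id2 was not higher by this rule with equal UMIs or without mouse 17, whereas Lef1 and Tcf7 were also lower with equal UMIs. Of 18 genes of the T cell receptor complex none was higher and Cd28 and Cd3d were lower, and Cd3d averaged 370 ± 367 against 1048 ± 454 CPM. Only Cd3d of this list was lower with equal UMIs. Cd3g, which encodes another CD3 chain, ranged from 183 to 2822 CPM in CD8 Gzma and from 590 to 1879 CPM in CD8 Gzmk.

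Of 18 type I interferon response genes 3 were lower (Ly6a, Rsad2 and Rtp4), and Ly6a alone remained so with equal UMIs, at 154 ± 150 against 705 ± 644 CPM. Of 21 migration and adhesion genes the integrin genes Itga4 and Itgb2 were higher, and Ccr7, Cd69 and Cxcr3 were among the 4 lower. With equal UMIs 1 gene of this list was higher and Cd69 alone was lower, and without mouse 17 the counts were 2 higher and 2 lower. Of 9 measured killer lectin receptors Klre1 and Klrg1 were higher. Of 14 NK cell markers Klra9 and Tyrobp were higher, but neither was apart without mouse 17, when 2 markers of the list were lower. Of 9 measured checkpoint receptors Cd244 alone was higher, Pdcd1, the gene of PD-1, had a UMI in 2 of the 16 CD8 Gzma samples and Lag3 in 1. Of 12 cell cycle genes Tuba1b was higher, and not without mouse 17. In the remaining lists, Xcl1, a chemokine, Jund, Ikzf2 and Ighm were each lower, and no gamma delta T cell, myeloid, lung or erythroid gene was apart. Of these, Xcl1 and Ighm were also lower with equal UMIs, and Jund and Ikzf2 were not.

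**Figure D3:**
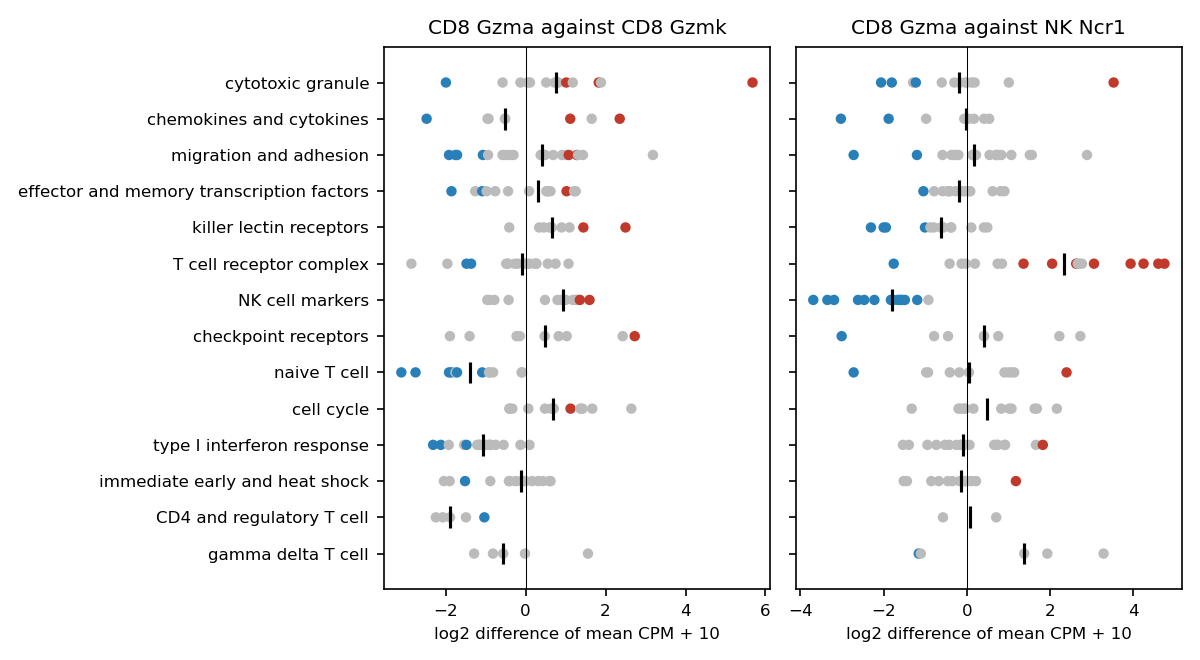
Log2 difference of mean CPM + 10 for each measured gene of 14 gene lists, CD8 Gzma against CD8 Gzmk (left) and against NK Ncr1 (right); red and blue points are apart on the higher or lower side, grey points are not, and the black line is the list median. Against CD8 Gzmk the naive T cell genes lie to the left (median -1.40), and against NK Ncr1 the T cell receptor complex lies to the right (median 2.34) and the NK cell markers to the left (median -1.80).

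Against NK Ncr1, Gzma and Gzmb were not apart, 8 of 18 genes of the T cell receptor complex and Gzmk were higher, and 13 of 14 NK cell markers were lower. Gzma averaged 11408 ± 2941 against 12996 ± 2168 CPM, lower in 12 and higher in 4 of 16 samples, and Gzmb 1360 ± 873 against 1677 ± 731 CPM. Prf1 was lower in 16 of 16 samples, from 0 to 764 CPM (median 291) against 828 to 2300 CPM (median 1241), with no overlap between the labels. Of 12326 genes, 575 (4.66%) were apart, 26 higher and 549 lower, and with equal UMIs 15 and 60. The count was 379 without mouse 2, 374 without mouse 6 and 381 without mouse 18.

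Of 18 genes of the T cell receptor complex 8 were higher and Cd27, a costimulatory receptor, was lower. With equal UMIs 7 of them were higher and 0 lower. Cd8a averaged 870 ± 720 against 22.7 ± 27.7 CPM (log2 difference 4.75) and was higher in 15 samples and lower in none. Cd8b1 averaged 1448 ± 1070 against 50.01 ± 86.4 CPM (4.60), Cd3g 1268 ± 793 against 73.5 ± 125 CPM (3.94) and Trac, the constant part of the T cell receptor alpha chain, 764 ± 730 against 83.0 ± 92.5 CPM (3.06). Cd6 (4.25), Gzmk (3.53), Gm8369 (3.02) and Lat (2.63), an adaptor of T cell receptor signalling, completed the 8 largest, of which Cd6 was not apart with equal UMIs. Thy1, a surface protein of T cells, was higher in 16 of 16 samples at 333 ± 172 against 72.8 ± 47.7 CPM.

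On the lower side stood 13 of 14 NK cell markers, all 13 also with equal UMIs, and 14 of 14 without mouse 17. Klri2 (-3.69), Klra4 (-3.35), Klrb1c (-3.19) and Klra13-ps (-3.19) belong to the receptor cluster of NK cells or derive from it. Ncr1 averaged 195 ± 263 against 1123 ± 284 CPM and was lower in 16 of 16 samples. Other genes among the 8 largest were Zbtb20 (-3.48), Serpinb9b (-3.30), Trdv2-2 (-3.25) and Cma1 (-3.12), the last encoding a chymase, and of these Trdv2-2 was not apart with equal UMIs. Serpinb9, an inhibitor of granzyme B, was lower in 16 of 16 samples, at 254 ± 195 against 911 ± 171 CPM, and Ccl4 averaged 641 ± 636 against 2383 ± 1252 CPM.

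Against the other 3 labels the samples were fewer. Against CD8 Dapl1 (14 samples from 11 mice) 311 of 8670 genes (3.59%) were apart, 75 higher and 236 lower, and with equal UMIs 54 and 161. Gzma (6.69), Ccl5 (5.58), Klrg1 (5.10) and Gzmb (5.07) were higher, and Gzmk had no UMI in any of the 14 CD8 Dapl1 sums against 487 ± 517 CPM in CD8 Gzma. Of 13 measured granule genes 7 were higher and none lower, among them Prf1, Fasl, Nkg7 and Serpinb6b. Zeb2, a repressor of the ZEB family linked to terminal effector cells, was higher in 12 samples and lower in none, at 234 ± 219 against 10.2 ± 18.8 CPM. Dapl1 (-5.24), Rgs10 (-4.28), Rflnb (-3.99) and Il7r (-3.62) were the strongest lower genes, of which Rflnb was not apart with equal UMIs.

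Against CD8 Lag3 (8 samples from 5 mice, so some share an animal) 359 of 7931 genes (4.53%) were apart, 148 higher and 211 lower, and with equal UMIs 77 and 98. The count was 235, 194, 187, 170 and 1212 without mouse 6, 7, 11, 17 and 36 in turn. Gzma was higher in 8 of 8 samples (6.07), as were Ccl5 (1.90), Klrg1 (2.24), Itga4 (2.78) and Klf2 (2.51), a transcription factor that maintains the receptors for leaving tissue. S1pr1, one such receptor, was higher in 7 of 8 at 245 ± 173 against 76.8 ± 113 CPM. Gzmb, Prf1 and Gzmk were not apart. Of 18 genes of the T cell receptor complex 0 were higher and 6 were lower (Cd247, Cd3d, Cd3g, Cd8a, Trbc1 and Trbc2). The same 6 were lower with equal UMIs, and 4 of the list were lower without mouse 17. Ly6a (-2.73) and Ifi27l2a (-2.57), both interferon-induced, were lower in 8 of 8. Of the 4 largest on each side, Gm12216, Ifitm10 (3.44), Sik3 (3.26), Parp1 (-4.19), Gpr183 (-4.06), Crem (-3.86) and Ikzf2 (-3.75) were not apart without mouse 17, and all but Ifitm10 and Gpr183 were also not apart with equal UMIs. Pdcd1 had no UMI in the 8 CD8 Gzma sums and 653 ± 779 CPM in CD8 Lag3, but was lower in only 5 of 8 samples and so not apart.

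Against NK Xcl1 (6 samples from 4 mice, so some share an animal) 323 of 6211 genes (5.2%) were apart, 129 higher and 194 lower, and with equal UMIs 76 and 115. The count was 725, 926 and 1118 without mouse 6, 17 and 36. Klrg1 (5.60), Ccl5 (5.00) and Lpin1 (4.57), a lipid phosphatase gene, were higher in 6 of 6 samples, and Mrps35 had no UMI in NK Xcl1. Xcl1 (-6.64), Top3b (-3.95), Vma21 (-3.94) and Pak1ip1 (-3.69) were the strongest lower genes. With equal UMIs Mrps35, Vma21 and Pak1ip1 were not apart. Gzma averaged 11877 ± 3261 against 5482 ± 4250 CPM and was apart (1.11), but not without mouse 17 (0.74).

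The share of CD8 Gzma wells among T cells varied more within tissues than between most of them. It was 13.7%, 4.0% and 6.41% in the 3 Normal lungs and 5.10%, 0.909% and 0% in the Pre-MET lungs. Relapse-free lungs ranged from 0.963% to 13.7% (median 2.21%, n = 6), with mice 7 and 11 high and the other 4 below 3%. These shares count every well with the label. Of the 32 such wells of mouse 11, 6 held NK cell markers only and 2 held neither marker list. Distal normal tissue reached from 0% to 8.22% (median 3.28%, n = 14), MET from 0% to 11.4% (median 4.23%, n = 13), MET Core from 0% to 8.33% (median 3.09%, n = 13) and MET Invasive margin from 0% to 7.02% (median 5.0%, n = 7). Of the primary tumors, 1 held 1 CD8 Gzma well and 3 held none, which at 3 wells allows shares of up to 2.03% to 3.80% in them. Counting error alone is wide at these numbers, and the ranges overlapped for every pair compared.

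**Figure D4:**
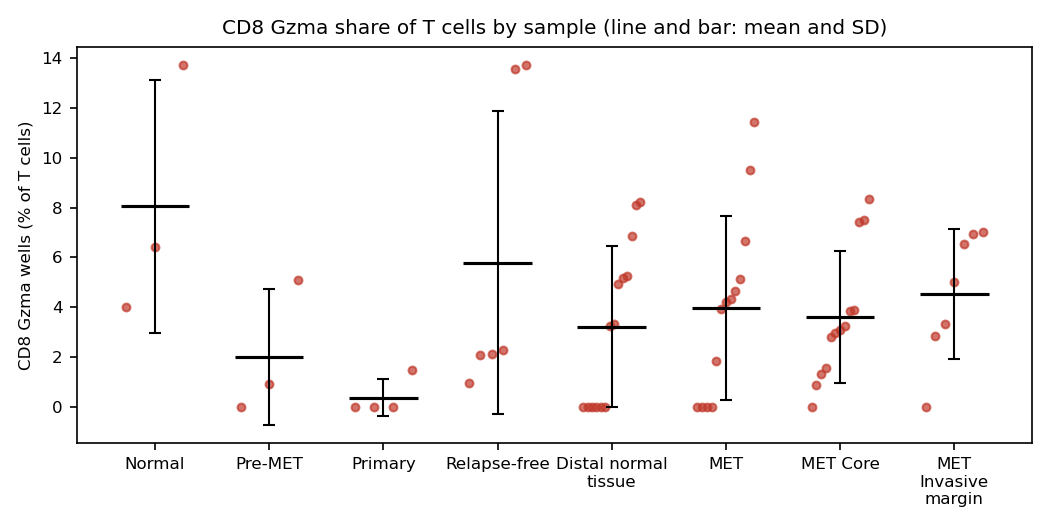
Percentage of T cells labelled CD8 Gzma in each sample, by tissue, with the mean as a line and the SD as a bar. Normal lungs average 8.05%, primary tumors sit at 0% in 3 of 4 samples, and the other tissues overlap.

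No difference in share passed a threshold of 0.05 after Benjamini-Hochberg adjustment over 6 comparisons. Pre-MET lungs averaged 2.00 ± 2.72% (SD, n = 3) against 8.05 ± 5.07% in Normal lungs (two-sided exact permutation p = 0.2, adjusted 0.455), where the design cannot go below 0.1. The difference of -6.04 percentage points was -3.20 without Normal mouse 1. Relapse-free lungs averaged 5.79 ± 6.10% (n = 6) against the Normal 8.05% (exact permutation p = 0.476, adjusted 0.571), a difference of -2.26 percentage points that turned to 0.586 without Normal mouse 1. Distal normal tissue averaged 3.22 ± 3.23% (n = 14) against 5.79% in Relapse-free lungs (exact permutation p = 0.228, adjusted 0.455), and the difference of -2.57 points was -0.984 without Relapse-free mouse 7 and -1.01 without Relapse-free mouse 11. The direction turned within the batches that held both groups. Distal normal tissue was higher there by 5.93, 1.70 and 1.33 percentage points in batches SB112, SB118 and SB128. Each of these batches held 1 Relapse-free mouse (18, 29 and 35), all with low shares, and none held mouse 7 or 11. With wells of at least 1000 UMIs distal normal tissue was higher by 3.45 points. Normal lungs were sequenced in a batch of their own, so batch and group cannot be told apart in their comparisons.

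Within 13 mice, MET exceeded distal normal tissue by 1.14 percentage points on average, higher in 6, lower in 5 and tied in 2 (exact sign-flip permutation p = 0.407, adjusted 0.571). The difference was 3.93 in batch SB118, 1.75 in SB124 and -0.861 in SB128, and it was -8.38 with wells of at least 1000 UMIs. Without mouse 24, 25, 27 or 30 it was 0.443, 0.681, 0.697 and 1.76. Within 6 mice the margin exceeded the core by 0.613 points, higher in 3 and lower in 3 (exact sign-flip permutation p = 0.781, adjusted 0.781), with 3.97 in SB112, 1.83 in SB118, -1.85 in SB124 and -0.252 in SB128, and the mean was below 0 without mouse 17, 28 or 31 (-0.0583, -0.497 and -0.00548), 1.24 without mouse 26 and 2.22 without mouse 32. Cores exceeded primary tumors by 3.23 percentage points, and 10 of 13 cores lay above all primary tumors (exact permutation p = 0.0282, adjusted 0.169). Batch SB128, the only batch with both, gave 1.69 from 1 tumor and 2 cores.

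The sort also differed between plates of a mouse. In Relapse-free mouse 7, CD8 Gzma wells were 9.81% of T cells sorted as photoactivated (26 of 265, exact binomial 95% interval 6.51 to 14%) and 14.9% of those sorted as CD45-positive without photoactivation (81 of 543, 12 to 18.2%). In mouse 6 the same gates gave 2.72% (4 of 147) and 0.909% (1 of 110), in the opposite order. The gate on CD45 alone gave 19.4% (13 of 67, 10.8 to 30.9%) in mouse 7, the highest of its 3 gates, and 0 of 262 in mouse 6, where the exact upper limit is 1.40%. These intervals cover counting error only.

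Expression within CD8 Gzma wells was compared between conditions on 1 sum per mouse with 5 or more wells: 3 Normal, 4 Relapse-free and 8 metastasis-bearing mice, the last over all their lung tissues. After the filter on low counts 264 genes were tested in 1 edgeR quasi-likelihood fit. Gzma was not called in any contrast, at 9829 ± 2344 CPM in Normal, 9653 ± 2802 in Relapse-free and 10268 ± 2417 in metastasis-bearing mice (SD, n = 3, 4 and 8 mice; edgeR adjusted p from 0.911 to 0.999). Per mouse it was 12438, 7901 and 9148 CPM in Normal lungs and from 6764 to 12912 CPM in Relapse-free lungs, within the range of 6637 to 13985 CPM of metastasis-bearing mice. Gzmb, Ccl5, Nkg7 and Klrg1 did not pass the test in any of the 3 contrasts either.

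Relapse-free against Normal gave no call (0 of 264 genes, 0%) by edgeR at an adjusted p below 0.05, with 4 genes at an unadjusted p below 0.05, and none by DESeq2. Metastasis-bearing against Normal also gave none by edgeR (0%), with 24 genes at an unadjusted p below 0.05 and 1 call by DESeq2. The edgeR count was 8 (6 lower, 2 higher) without mouse 30, 2 without mouse 17, 1 without mouse 1 or mouse 3, and 0 without any other mouse. All 3 Normal mice came from batch SB102, which held no other group, so batch and group cannot be told apart in either contrast against Normal. Metastasis-bearing against Relapse-free gave 5 calls (1.89%), all lower in metastasis-bearing mice, with 24 genes at an unadjusted p below 0.05 and 6 calls by DESeq2, which shared all 5. None of the tested granule, chemokine, migration, lectin receptor or T cell receptor genes was among them.

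The 5 genes were Lyz2, the gene of lysozyme in myeloid cells, and the pseudogenes Gm13339, Gm12328, Gm29216 and Gm44389, whose reads can come from near-identical copies and are uncertain. Lyz2 (chromosome 10 from 117277331 to 117282321) stood at 2618, 1301, 1197 and 508 CPM in Relapse-free mice 6, 7, 11 and 18, at 558, 1599 and 518 CPM in Normal mice and from 0 to 600 CPM (median 248) in the 8 metastasis-bearing mice. Relapse-free mouse 18 lay within the metastasis-bearing range. The log2 fold change was -2.02 (SE 0.548, edgeR adjusted p = 0.0472). This call was lost without mouse 1, 2, 3, 6, 7, 11, 26, 27, 28, 30, 31, 32 or 36 in turn. Gm29216 averaged 3733 ± 2240 CPM in metastasis-bearing and 10307 ± 5499 CPM in Relapse-free mice (log2 fold change -1.47, edgeR adjusted p = 0.0402), and Gm13339 362 ± 180 and 1723 ± 1145 CPM (-2.11, edgeR adjusted p = 0.0223). The other changes were -2.32 for Gm12328 (edgeR adjusted p = 0.0402) and -2.56 for Gm44389 (edgeR adjusted p = 0.0472).

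These calls were easily lost when single mice were left out, and no call was left without mouse 6, 7, 11, 27, 31 or 36 in turn. The count was 1 without mouse 1, 3, 26, 28 or 32. The groups also differed in batch: 3 of the 4 Relapse-free mice came from batches without a metastasis-bearing mouse. In the batch with both, SB112, Relapse-free mouse 18 and metastasis-bearing mouse 17 held 508 and 600 CPM of Lyz2, 2881 and 3363 CPM of Gm29216 and 508 and 495 CPM of Gm13339. Gm12328 stood there at 678 and 587 CPM and Gm44389 at 254 and 130 CPM. With 1 mouse on each side, the differences within this batch have no replicate check.

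The same lower means were found in other cells of the same mice. Lyz2 averaged 219 CPM in metastasis-bearing against 611 CPM in Relapse-free mice in CD8 Gzmk wells, 202 against 582 CPM in NK Ncr1 wells and 280 against 630 CPM in B cell wells. Gm29216 averaged 3316 against 9032 CPM in NK Ncr1 and 5632 against 18446 CPM in B cell wells. Summed over 7 myeloid markers, CD8 Gzma wells held 751 to 3292 CPM in Normal, 2712 to 5681 CPM in Relapse-free and 467 to 2750 CPM in metastasis-bearing mice. Of these 7 markers Lyz2 and S100a8, a gene of neutrophils, passed the filter. S100a8 averaged 426 ± 345 CPM in Normal, 1869 ± 731 CPM in Relapse-free and 649 ± 592 CPM in metastasis-bearing mice. Its edgeR adjusted p was 0.208 for metastasis-bearing against Relapse-free and 0.999 for Relapse-free against Normal mice. Csf1r, a macrophage receptor gene, had no UMI in 12 of the 16 samples. The part of myeloid RNA and of batch in the 5 calls was not tested.

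**Figure D5:**
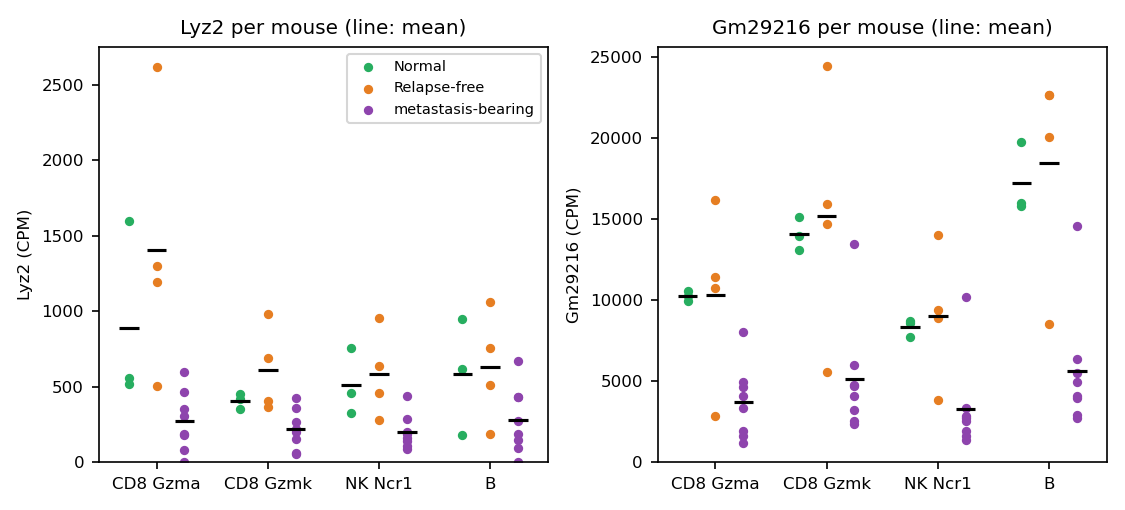
CPM of Lyz2 (left) and Gm29216 (right) per mouse in CD8 Gzma, CD8 Gzmk, NK Ncr1 and B cell wells, for Normal, Relapse-free and metastasis-bearing mice, with the mean as a line. In all 4 labels the mean of metastasis-bearing mice is the lowest of the groups, for Lyz2 at 272 CPM in CD8 Gzma and 280 CPM in B cell wells.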

How the data were processed

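Single cells were sorted into plates and made into 3' UMI libraries. The authors deposited raw UMI counts per gene and well for 148 plates, with an annotation of 24020 wells holding mouse, tissue, sequencing batch and cluster label. The submitters' processing notes name mm10 and bcl2fastq 2.15.0.4. According to the methods, reads with several mapping positions were dropped, so near-identical genes lose counts, and wells under 500 UMIs were discarded. Members, gene lists and tests were chosen with earlier results of these data known.

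Wells were summed per mouse and tissue (5 or more wells). Each well was sorted as a single cell and no doublet caller was run. Labels were compared by CPM with a pseudocount of 10, in 18 lists of 201 genes and the 8 largest differences each way against CD8 Gzmk and NK Ncr1 (4 against other labels), plus called genes. Shares used exact permutation tests, and mice were compared with edgeR 4.0.16 (TMM, filterByExpr, glmQLFTest, Benjamini-Hochberg) or DESeq2 1.42.0 as the alternative, in R 4.3.3 and Python 3.11.15. MET and distal tissue, and margin and core, were paired by the mouse in the annotation. Each mouse is a separate animal. Steps were tested on simulated data. Alternatives are in the closing section, and those restricting wells to a T cell marker UMI or thinning sums to equal UMIs were chosen after seeing the data. Results for 1 gene of the lists are not reported here, and counts include it.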

Additional observations from a re-analysis of the deposited data

Results flagged for a closer look

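In 29 groups of 4 to 10 samples tested for a sample far from the others, 3 held one. The cutoff marks about 1 in 20 groups by chance only where values are independent and normally spread. Most groups here were genes in the same mice, so that rate need not hold. Among the 4 primary tumors, mouse 8 held a CD8 Gzma share of 1.47% of T cells, from a single well, and the others held 0%. With the others tied, any share above 0% would have been marked. Among the 8 metastasis-bearing mice, mouse 30 held 1891 CPM of the pseudogene Gm12328, where the next highest held 587 CPM, and 827 CPM of the pseudogene Gm44389, where the next highest held 286 CPM. The CD8 Gzma sum of mouse 30 consisted of 7 wells and 8462 UMIs.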

How the results depend on the processing

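The share of T cells reversed its direction in a few settings, none with a call. Distal normal tissue minus Relapse-free was 3.45 percentage points with wells of at least 1000 UMIs and 2.99 within batches, each with 1 Relapse-free mouse. MET minus distal normal tissue was -8.38 with wells of at least 1000 UMIs, and margin minus core was -0.0725 as a percentage of immune cells. Leaving out 1 mouse at a time gave -8.07 to -3.20 (Pre-MET minus Normal), -4.28 to 0.586 (Relapse-free minus Normal, reversed without mouse 1), -3.53 to -0.984, 0.443 to 1.76, -0.497 to 2.22 (margin minus core, reversed without mouse 17, 28 or 31 at -0.0583, -0.497 and -0.00548) and 2.84 to 3.60 (core minus primary). Without the replicate block by mouse, the unpaired differences were 0.757 (MET minus distal) and 0.921 (margin minus core), and no call changed. Comparisons with Normal lungs gave no value within batches, since no batch held both groups.

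The number of genes apart depended strongly on the filter. With a pseudocount of 50 CPM it was 160 against CD8 Gzmk, 123 against NK Ncr1 and 238 against CD8 Lag3. With at least 10 wells of both labels it was 816 (CD8 Gzmk), 1149 (NK Ncr1), 802 (CD8 Dapl1), 1723 (CD8 Lag3) and 1612 (NK Xcl1), from fewer samples. Wells of at least 1000 UMIs gave 596 (CD8 Dapl1), 1447 (CD8 Lag3) and 674 (NK Xcl1), and wells thinned to 500 UMIs gave 264 (CD8 Gzmk), 166 (CD8 Dapl1), 159 (CD8 Lag3) and 116 (NK Xcl1). With equal UMIs it was 125 (CD8 Gzmk), 75 (NK Ncr1), 175 (CD8 Lag3) and 191 (NK Xcl1). Leaving out 1 mouse gave 273 to 468, 374 to 859, 328 to 401 (CD8 Dapl1), 170 to 1212 and 460 to 1118.

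For conditions, metastasis-bearing minus Normal gave 1 call with DESeq2, 8 with at least 10 wells per mouse, 2 with wells of at least 1000 UMIs, 4 in lesion tissues alone and 0 to 8 with a mouse left out. Metastasis-bearing minus Relapse-free gave 3 with RLE normalization, 1 with no filter, 8 with at least 10 wells, 3 with at least 1000 UMIs, 3 with sums per tissue and 0 to 6 with a mouse left out. Relapse-free minus Normal stayed at 0 in 21 of 21 settings. The cause of these changes was not tested. Sums of 4023 UMIs limit the lowest samples, where 1 UMI is a large step in CPM.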
